A study of Homo sapiens with 14 samples.

Results

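Human mitochondrial DNA encodes 13 proteins of the respiratory chain and ATP synthase, 2 ribosomal RNAs and 22 transfer RNAs. All 37 rows of the deposited RNA tables whose locus lies on the mitochondrial chromosome (chrM) were taken, out of 204092 rows in all. Each is an Ensembl transcript, and each of the 32 loci they form was paired by position with the mitochondrial genes of RefSeq. They were measured in HEK293T cells, a human embryonic kidney line that carries the SV40 large T antigen. One group was wild type and the other was a SETD2 knockout of the same line, which lacks the enzyme that trimethylates lysine 36 of histone H3. The labels give 3 RNA libraries for each genotype and no further treatment, and cells were grown in 5% CO2. How the knockout was made, and whether it is a clone, was not given in the sources used here. For 1 of the wild type RNA libraries the extraction text in the labels describes chromatin, not RNA.

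Mitochondrial DNA is a small circle present in many copies per cell and packed without histones. It is transcribed from both strands as long precursors, in which tRNAs separate most of the mRNAs and rRNAs and mark where the precursor is cut. The strand called heavy here carries most of the genes, while ND6 and 8 tRNAs lie on the other strand. Genes of the same strand can share a precursor, and the levels of their RNAs depend also on processing and decay.

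The tables hold 1 value per transcript and group in FPKM, which counts fragments relative to transcript length and to the mapped fragments of a library. Neither library values nor read counts are included, so the depth is unknown and the spread between libraries could not be measured. The only errors are the lower and upper bounds in the authors' FPKM tracking table, and no confidence level is stated for them. A second table, of tests between the groups, gives FPKM values that match the tracking table up to a nearly fixed factor in the wild type but not in the knockout. Over the tested mitochondrial rows the ratio of tracking to test value ran from 0.975 to 0.980 in the wild type and from 0.652 to 1.17 in the knockout. Values below come from the table of tests unless the tracking table is named. RNA had been depleted of rRNA before sequencing, and no source used here says whether counting used strand. Bulk values cannot tell less of a transcript in every cell from fewer cells that hold it.

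Mitochondrial rows were among the most abundant in both groups. Their sum was 338232 FPKM in knockout cells, 26.6% of all rows together, and 399920 FPKM in wild type cells, 29.5%. Of the 20 rows of highest FPKM, 18 were mitochondrial in knockout and 17 in wild type cells, of which 12 and 13 were tRNAs. Of the 37 rows, 26 were tested by the authors. The status HIDATA, which Cuffdiff gives to a locus with more fragments than it will process, stood beside 4 mRNA rows. Among them the 3 rows of the ATP8, ATP6 and COX3 locus are counted in the knockout sum and in its 20 highest rows, and were 0 in the wild type. The remaining 7 rows, all tRNAs, were listed at 0 in both groups and not tested.

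No mitochondrial row passed the authors' q-value of 0.05. In the authors' deposited table the count was 0 of 26 tested rows, against 0.255% of all 85852 tested rows. Those called lower in the knockout were 0.192% of all tested rows. At an unadjusted p under 0.05 there were 4 of 26 (15.4%), against 2.38% of all tested rows and 5.38% of the 93 tested rows outside chrM that reached 1000 FPKM in a group. All 4 were lower in the knockout, where the share over all tested rows was 1.57%. The 5 such rows among the 93 outside chrM were all lower too. Short rows were compared through 21 tested single-row loci outside chrM of at most 140 bases, with at least 100 FPKM in a group. Of these 21, 2 (9.52%) had such a p, and 1 of the 2 was lower in the knockout. The 4 mitochondrial rows were ND3 and the tRNAs for methionine, histidine and serine (AGY). The lowest p of the deposited table among mitochondrial rows was 0.00775, for tRNA-His, with q = 0.902. The p-values rest on libraries that the labels do not describe as separate cultures, so they may measure technical spread only.

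All 9 tested mRNA rows and both rRNAs lay within 1.5-fold of the wild type, in either table. Of the 15 tested tRNA rows 10 did in the table of tests, and the other 5 were lower in the knockout. The tracking table had 8 of the 15 within that limit and the other 7 lower. Among tested transcripts outside chrM above 0 in both groups, 48.9% of those with 1 FPKM or more lay within 1.5-fold in the table of tests and 21.7% were lower beyond it. Of those that reached 1000 FPKM, 80.2% lay within 1.5-fold and 10.5% were lower beyond it. A set closer to the tRNAs in length was 19 tested single-row loci outside chrM of at most 140 bases. They had at least 100 FPKM in a group and values above 0 in both. Of these, 6 (31.6%) lay within 1.5-fold in the table of tests and 5 (26.3%) were lower beyond it. By the tracking values, 11 of the 19 lay within that limit and 3 were lower beyond it. The median log2 ratio of knockout to wild type was 0.02 over the mRNA rows and -0.37 over the tRNA rows. Over 56266 tested transcripts outside chrM, with 1 FPKM or more in either group and no value of 0, it was 0.11. Relative to that median the mitochondrial medians are -0.084 for mRNAs and -0.48 for tRNAs. The reference matters: the median outside chrM was -0.03 over 1555 such transcripts that reached 100 FPKM. It was 0.01 over 86 that reached 1000 FPKM. In the tracking table the mRNA median was -0.15, so its sign depends on the table and on the scaling, while the tRNA median was -0.39. Whether the rows of the 2 classes differ beyond the spread between libraries was not tested, since no value per library exists.

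**Figure D1:**
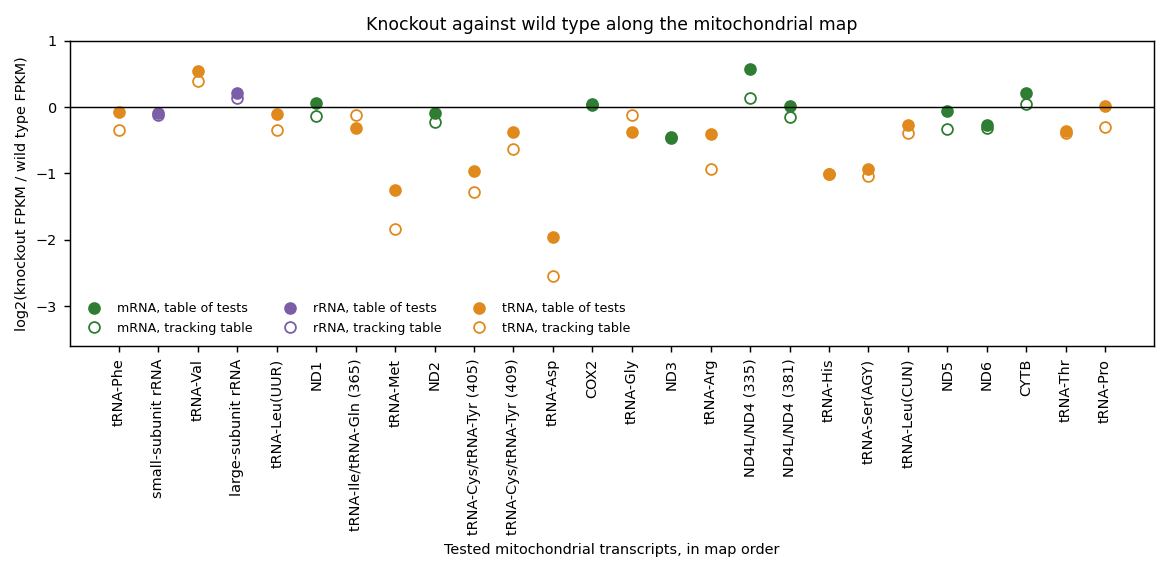
Log2 ratio of knockout to wild type FPKM (vertical axis) for the 26 tested mitochondrial transcripts in map order, with filled points from the table of tests and open points from the tracking table. Numbers in brackets are the last 3 digits of the transcript identifier where rows share a locus. The mRNAs and rRNAs lie on both sides of 0, between ND3 at -0.47 and ENST00000361335 at 0.57, and most tRNAs lie below 0, down to tRNA-Asp at -1.95 in the table of tests and -2.54 in the tracking table.

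Complex I, the NADH dehydrogenase that feeds electrons into the chain, has 7 subunits encoded on this DNA. ND1 (chrM 3306 to 4261) stood at 2806 FPKM in knockout and 2681 FPKM in wild type cells. ND2 (4469 to 5510) stood at 1814 and 1921 FPKM, and ND5 (12336 to 14147) at 1492 and 1554 FPKM. These 3 subunits of the membrane arm differed by at most 1.06-fold, and the authors' intervals of both groups overlapped for each. In the tracking table all 3 were lower in the knockout, by 1.10-fold, 1.17-fold and 1.25-fold.

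ND3 (10058 to 10403), a small subunit of the same complex, was the mRNA with the lowest p. It stood at 3770 FPKM in knockout and 5211 FPKM in wild type cells, 1.38-fold lower, with p = 0.0182 and q = 0.991 in the authors' deposited table. The tracking table gave 1.37-fold, with bounds of 2538 to 4913 FPKM in knockout and 3375 to 6808 FPKM in wild type cells. The intervals overlapped, and the size was nearly the same in both tables. As a share of the summed mRNA rows, ND3 made up 9.19% in knockout and 13.5% in wild type cells.

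ND6 (14148 to 14672) is the only protein gene on the other strand. It stood at 2917 FPKM in knockout and 3525 FPKM in wild type cells, 1.21-fold lower, with p = 0.166 in the authors' deposited table. The tracking table gave 1.25-fold lower. Without strand, fragments of ND6 mRNA and of the antisense part of the heavy-strand precursor cannot be told apart.

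ND4L and ND4 overlap and are carried on a joint mRNA, and the files list both rows under 1 locus (10469 to 12136) without saying which is which. ENST00000361381 stood at 4642 FPKM in knockout and 4574 FPKM in wild type cells, and was 1.11-fold lower in the knockout in the tracking table. ENST00000361335 stood at 10764 and 7238 FPKM, 1.49-fold higher in the knockout, with p = 0.461 in the authors' deposited table. This was the largest ratio among the mRNA rows, and its bounds were the widest: 0 to 20596 FPKM in knockout and 0 to 18233 FPKM in wild type cells. In the tracking table it was 1.10-fold higher. How fragments were divided between overlapping rows can move both values.

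CYTB (14746 to 15886), the cytochrome b of complex III, stood at 4130 FPKM in knockout and 3550 FPKM in wild type cells, 1.16-fold higher, and was 1.04-fold higher in the tracking table. COX2 (7585 to 8268), a subunit of complex IV that takes electrons from cytochrome c, stood at 8671 and 8471 FPKM. Its ratio of 1.02 was 1.03 in the tracking table. It was the mRNA row of highest FPKM in the wild type.

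From the highest to the lowest wild type FPKM, the mRNA rows ran COX2, ENST00000361335, ND3, ENST00000361381, CYTB, ND6, ND1, ND2 and ND5. The range from COX2 to ND5 was 5.45-fold. No neighbours in this order differed beyond the authors' intervals. Of the 36 pairs of rows, 9 had intervals that did not overlap. In the knockout the order was ENST00000361335, COX2, ENST00000361381, CYTB, ND3, ND6, ND1, ND2 and ND5, again with 9 of 36 pairs apart. The last 4 places were the same in both groups, and ND3 moved from the third place to the fifth. Both orders follow the table of tests, while the intervals are those of the tracking table. By the tracking values, COX2 (8526 FPKM) was above ENST00000361335 (7800 FPKM) in the knockout too. ND3 (3726 FPKM) was then above CYTB (3594 FPKM) in the knockout.

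**Figure D2:**
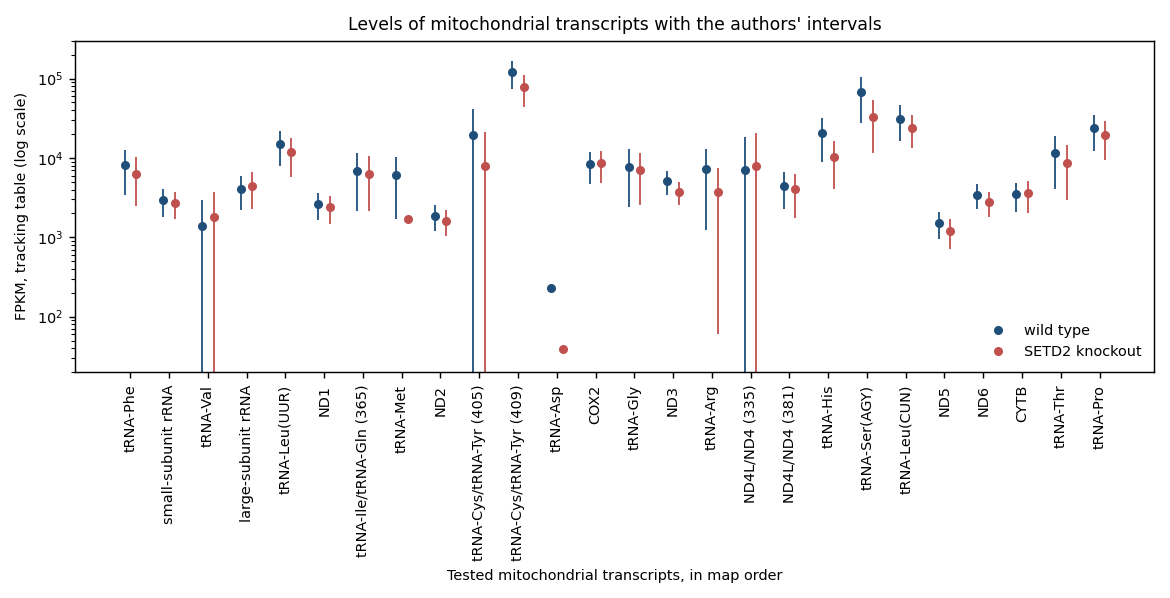
FPKM of the tracking table (vertical axis, log scale) for the 26 tested mitochondrial transcripts in map order, wild type in blue and knockout in red. Bars are the authors' lower and upper bounds, drawn to the bottom of the axis where the lower bound is 0. The bars of both groups overlap for 24 of the 26, all but tRNA-Met and tRNA-Asp.

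The remaining 4 mRNAs had no usable value. COX1 (5903 to 7444), the catalytic subunit of complex IV, was listed at 0 in both groups and both tables with the status HIDATA. The zero is a failed estimate and not a low level. The locus shared by ATP8, ATP6 and COX3 (8365 to 9989) had the same status. ATP8 and ATP6 are subunits of ATP synthase and COX3 is another subunit of complex IV. Their rows were listed at 0 in the wild type, while the table of tests gave the knockout 20117, 7342 and 6104 FPKM. In the tracking table the same 3 knockout values were 0. The 3 values sum to 33563 FPKM, 9.92% of the mitochondrial sum of the knockout, and have no counterpart in the wild type. Without rows of a failed estimate the mitochondrial share of all FPKM was 24.6% in knockout and 29.6% in wild type cells.

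The whole table has 24 rows with this status. Beside the 4 on chrM, 16 lay at a single locus of chromosome 1 (hg19, 536816 to 660283) and 4 on an unplaced scaffold. The start of chromosome 1 carries a nuclear insertion of mitochondrial sequence, and RefSeq lists there in a row the pseudogenes MTND1P23, MTND2P28, MTCO1P12, MTCO2P12, MTATP8P1, MTATP6P1 and MTCO3P12. All 16 rows were listed at 0 in both groups and both tables. How fragments that match both copies were assigned was not given in the sources used here, so the values of ND1, ND2 and COX2 are uncertain to that extent. The tRNA rows from tRNA-Ile to tRNA-Lys lie between ND1 and COX3 on chrM. They include tRNA-Met, tRNA-Asp and the locus of tRNA-Cys and tRNA-Tyr, and are uncertain likewise where the insertion holds their sequence, which was not checked. What part the assignment of such fragments plays in any mitochondrial value was not tested.

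The 2 ribosomal RNAs build the mitochondrial ribosome. The small-subunit rRNA RNR1 (646 to 1599) stood at 2814 FPKM in knockout and 2992 FPKM in wild type cells. The large-subunit rRNA RNR2 (1669 to 3228) stood at 4790 and 4138 FPKM, 1.16-fold higher in the knockout, with p = 0.404 in the authors' deposited table. The intervals of both groups overlapped for both rRNAs. The ratio of RNR2 to RNR1 was 1.70 in knockout and 1.38 in wild type cells. The libraries had been depleted of rRNA, so these are levels of what the depletion left. They lay near the median of the mRNA rows, 3770 FPKM in knockout and 3550 FPKM in wild type cells.

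Transfer RNAs held most of the mitochondrial FPKM. They took 75.7% of the mitochondrial sum in knockout and 88.5% in wild type cells, or 84.0% and 88.5% without the rows of a failed estimate. A row under 80 bases is shorter than the fragments such library kits usually yield, and no source used here says how the authors' software scaled such rows. The level of a tRNA row is therefore not comparable with that of an mRNA row. The ratio between the groups uses the same row in both, but whether the scaling of such rows was the same in both groups is unknown. Rows without a failed estimate at loci that span more than 300 bases leave mRNAs and rRNAs on chrM. Outside chrM such a locus can hold shorter transcripts, so this is not a share among long transcripts. Over these rows the mitochondrial share was 5.03% in knockout and 4.72% in wild type cells. In the tracking table it was 4.23% and 4.72%. The lower share in the knockout over all rows thus goes with the tRNA rows in the table of tests.

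**Figure D3:**
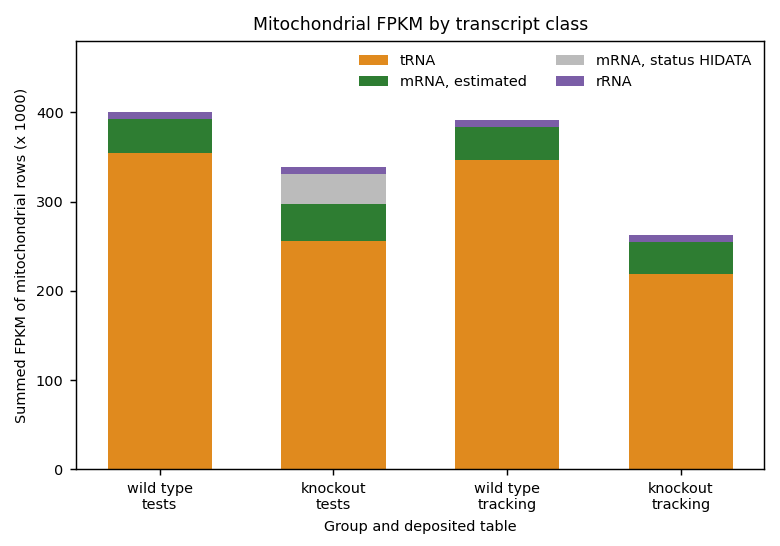
Summed FPKM of mitochondrial rows divided by 1000 (vertical axis) for each group in each deposited table, stacked by class. The tRNA part is the largest in all 4 bars and smaller in the knockout, and the grey part, mRNA rows with status HIDATA, is present only in the knockout of the table of tests.

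The highest row of the whole table in both groups lay at the joint locus of tRNA-Cys and tRNA-Tyr (5760 to 5890), beside the origin of light-strand replication. ENST00000387409 stood at 95312 FPKM in knockout and 123590 FPKM in wild type cells, 1.30-fold lower, with p = 0.149 in the authors' deposited table. The tracking table gave 1.55-fold lower, with bounds of 44270 to 111776 FPKM and 72869 to 168413 FPKM. The other row of the locus, ENST00000387405, stood at 10309 and 19992 FPKM, 1.94-fold lower and 2.43-fold lower in the tracking table, with lower bounds of 0 in both groups. The files do not say which row is which tRNA. Together they held 31.2% of the mitochondrial sum in knockout and 35.9% in wild type cells, and 8.29% and 10.6% of the sum over all rows.

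The rows of tRNA-Ser(AGY) and tRNA-Leu(CUN), next in level after it, were neighbours on the map. tRNA-Ser(AGY) (12206 to 12264) stood at 35644 FPKM in knockout and 68268 FPKM in wild type cells, 1.92-fold lower, with p = 0.0173 in the authors' deposited table. tRNA-His (12137 to 12205), which lies just before it, stood at 10377 and 20775 FPKM, 2.00-fold lower, with p = 0.00775 in the same deposited table. The last of this run, tRNA-Leu(CUN) (12265 to 12335), stood at 26612 and 31910 FPKM, 1.20-fold lower. The tracking table gave 2.06-fold for tRNA-Ser(AGY), 2.00-fold for tRNA-His and 1.31-fold for tRNA-Leu(CUN). For all 3 the intervals of the groups overlapped, with bounds of 4107 to 16199 FPKM and 8839 to 31835 FPKM for tRNA-His. Of the mRNAs on either side, ND5 was 1.04-fold lower in the table of tests and 1.25-fold lower in the tracking table. The 2 rows of ND4L and ND4 were 1.01-fold and 1.49-fold higher in the table of tests. In the tracking table these 2 rows were 1.11-fold lower and 1.10-fold higher.

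tRNA-Met (4401 to 4468) stood at 2585 FPKM in knockout and 6160 FPKM in wild type cells, 2.38-fold lower, with p = 0.0318 in the authors' deposited table and 3.57-fold lower in the tracking table. tRNA-Asp (7517 to 7584), the lowest tRNA row with a value, stood at 60.3 and 234 FPKM, 3.87-fold lower, with p = 0.395 in the authors' deposited table, and 5.82-fold lower in the tracking table. These were the only 2 of 26 rows whose intervals did not overlap, against 0.632% of all tested rows, and 0.416% in this direction. In either direction, 5 of the 93 tested rows outside chrM that reached 1000 FPKM had such intervals. So did 5 of 21 tested single-row loci elsewhere of at most 140 bases with at least 100 FPKM in a group, and 4 of 8 under 80 bases. These sets elsewhere include tested rows at 0 in a group, while no tested mitochondrial row was at 0. By this count, rows at 0 included, the 2 mitochondrial rows are not set apart from abundant or short rows elsewhere. How many of the rows elsewhere with intervals apart were at 0 was not counted. For both tRNA-Met and tRNA-Asp the interval is unlike that of the other mitochondrial rows. The knockout bounds of tRNA-Met were 1666 to 1706 FPKM, or 1.18% of the value to each side, against 71.6% in the wild type, whose lower bound was 1711 FPKM. The bounds of tRNA-Asp were 38.0 to 40.7 FPKM and 224 to 234 FPKM. Over the 15 tRNA rows the median was 60.6% in knockout and 58.7% in wild type cells. For both rows the knockout value of the tracking table was 0.652 times that of the table of tests, the lowest ratios among mitochondrial rows. With its bounds moved to the values of the table of tests, tRNA-Met had intervals that overlapped, which left 1 row apart.

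Of the other tested tRNAs, tRNA-Leu(UUR) (3229 to 3303) stood at 14268 and 15350 FPKM and tRNA-Pro (15955 to 16022) at 24589 and 24227 FPKM in knockout and wild type. tRNA-Pro was 1.01-fold higher in the knockout in the table of tests and 1.23-fold lower in the tracking table. tRNA-Thr (15887 to 15952) stood at 9133 and 11666 FPKM, and tRNA-Phe (575 to 645), which opens the heavy-strand transcript before RNR1, at 7839 and 8262 FPKM. tRNA-Gly (9990 to 10057) and tRNA-Arg (10404 to 10468), which flank ND3, stood at 6046 and 7850 FPKM and at 5530 and 7306 FPKM. Both were lower in the knockout, by 1.30-fold and 1.32-fold in the table of tests and by 1.09-fold and 1.91-fold in the tracking table, with intervals that overlapped. ND3 between them was lower by 1.38-fold and 1.37-fold in these tables. The joint locus of tRNA-Ile and tRNA-Gln (4262 to 4399) had 1 row at 5688 and 7056 FPKM and the other at 0. tRNA-Val (1600 to 1668), which the mitochondrial ribosome holds as a structural RNA, was the exception in direction in both tables. It stood at 2065 and 1419 FPKM, 1.46-fold higher in the knockout, with p = 0.422 in the authors' deposited table and lower bounds of 0.

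In all, 13 of the 15 tested tRNA rows were lower in the knockout in both tables, 1 was higher in both and 1 differed between the tables. For the mRNA rows the counts were 4 lower in both, 3 higher in both and 2 that differed. Among tested transcripts outside chrM that reached 1000 FPKM in a group and were above 0 in both, 21 of 86 were lower in both tables, 43 were higher in both and 22 differed. In the table of tests alone 42 of these 86 were lower. Their median log2 ratio was 0.01 in the table of tests, and 0.22 over the 87 above 0 in the tracking table. Over the 56266 transcripts outside chrM, 37.1% were lower in both tables. The 19 single-row loci elsewhere of at most 140 bases, with at least 100 FPKM in a group and values above 0 in both, are closer to the tRNAs in length. Of these, 8 were lower in both tables, 10 were higher in both and 1 differed, and the median log2 ratio was 0.08 in the table of tests, and 0.01 over the 20 above 0 in the tracking table. Rows on 1 strand share a precursor and all rows share the same libraries, so they are not independent of each other.

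**Figure D4:**
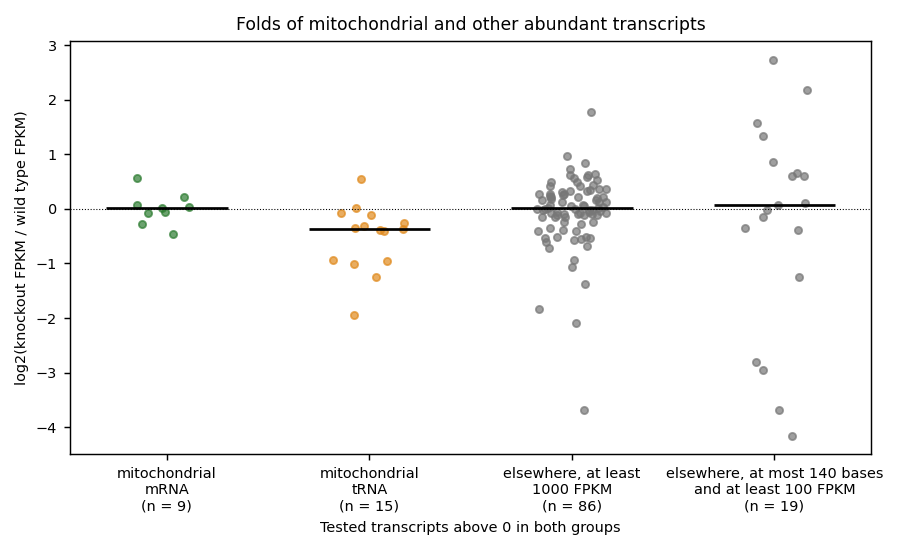
Log2 ratio of knockout to wild type FPKM in the table of tests (vertical axis) for mitochondrial mRNAs and tRNAs and for 2 sets of tested transcripts elsewhere, each point a transcript above 0 in both groups and each black line a median. The medians are 0.02 for mRNAs, -0.37 for tRNAs, 0.01 for other transcripts of at least 1000 FPKM and 0.08 for other short loci, whose points spread most widely.

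The 7 tRNA rows listed at 0 in both groups and both tables were those of tRNA-Trp (5511 to 5578), tRNA-Ala (5586 to 5654), tRNA-Asn (5656 to 5728), tRNA-Ser(UCN) (7445 to 7513), tRNA-Lys (8294 to 8363) and tRNA-Glu (14673 to 14741), and 1 row of the tRNA-Ile and tRNA-Gln locus. Of the first 6, 4 are encoded on the light-strand side with ND6 and 2 on the heavy-strand side. tRNA-Trp, tRNA-Ala and tRNA-Asn lie in a run directly before the tRNA-Cys and tRNA-Tyr locus, so rows at 0 and the highest row of the table are neighbours. Each of these tRNAs is needed for translation in the organelle, and the values say only that the rows were listed at 0.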

How the data were processed

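RNA was measured in 3 wild type and 3 SETD2 knockout libraries of HEK293T cells. Bowtie 1.1.2, TopHat and Cuffdiff are listed, without roles, in the submitters' processing notes, as is hg19. No source used here names the annotation. The authors deposited an FPKM value for every transcript in each group, with its bounds. A table of tests, per the file headers, has the authors' log2 ratio (wild type divided by knockout, turned here), their test score, p-value and q-value. The gene and transcript tables were identical.

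Rows on chrM were named through the RefSeq table of GRCh38.p14, allowing 2 bases at each end. Positions printed are those of the files with 1 added to each start, and lie 1 or 2 bases below that table's. They name chrM of hg19, whose sequence version is not given. All 13 mRNA and both rRNA rows are given singly, with tRNAs by size, p and change. Nuclear genes of mitochondrial RNA handling were not analysed here, since the files pair no nuclear row with a gene name, and no HEK293T marker was checked. Ratios are FPKM without pseudocount, and none is given against 0. No test between libraries was possible, so the authors' p and q at 0.05 were used. Members and sets were chosen with earlier results of these data known. The 1000 FPKM and 140-base sets were chosen after values were seen. The ChIP samples were not analysed here. Medians and interval overlaps were tested on simulated data. Python 3.11.15, pandas 2.3.3, numpy 2.4.6 and matplotlib 3.10.9 were used.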

Additional observations from a re-analysis of the deposited data

How the results depend on the processing

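The ratio of the mitochondrial share in the knockout to that in the wild type was 0.899. It kept its direction in the tracking table and without rows of status FAIL or HIDATA (0.705 and 0.832). It reversed to 1.74 without rows at loci that span at most 300 bases (8.22% against 4.72%). There the 3 knockout values of the ATP8, ATP6 and COX3 locus have no wild type counterpart. The ratio was 1.07 when rows of status FAIL or HIDATA were left out too. That last setting gave 0.896 in the tracking table; both were added after seeing the data. The mRNA median log2 ratio of 0.02 reversed to -0.15 in the tracking table and to -0.061 as shares of the mRNA sum. Relative to transcripts outside chrM of 1 FPKM or more it was -0.084. No direction is therefore given for the mRNAs as a class. Beyond the change of scaling the cause was not tested. The tRNA median stayed between -0.48 and -0.37, and the median over all 26 rows between -0.32 and -0.18. The count of called rows was 0 by q-value and 4 by unadjusted p-value. Intervals that did not overlap numbered 2, and 1 with bounds moved to the values of the table of tests. A value was counted as unchanged within 1.5 times, since no spread between libraries exists. FPKM times transcript length was not run, since the tables hold locus spans and no transcript lengths. At the single-row loci of chrM the span could have stood in for the length, which was not done. Leaving out a library was not possible for the same lack of library values. No paired analysis was possible because the tables hold 1 value per group. Depth is unknown and limits every value to an unknown extent.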
